A study of Mus musculus with 6 samples.

Results

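The genes described here are 38 genes of synaptic vesicles and transmitter release, chosen by name as a fixed list, and all 38 were present among the 27998 genes of the deposited count table. They hold the SNARE proteins and their recycling factors, the synaptotagmins and other calcium sensors, the complexins, further vesicle proteins, the Rab3 GTPases, the active zone scaffolds and priming factors, the vesicular glutamate transporters and 1 subunit of the vesicular proton pump. Their levels were read per mouse in dissociated sensory neurons of the dorsal root ganglion.

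Single-cell libraries were made from dorsal root ganglia of 6 mice in 3 groups of 2. Mice 698 and 699 were wild type (Ttpa+/+) on a basal diet and 5 months old. Mice 654, 657, 670 and 671 were Ttpa-/- and 6 months old. The diet of 654 and 657 was deficient in vitamin E, and that of 670 and 671 was supplemented with it. Each group held 1 female and 1 male. Ttpa encodes the transfer protein that keeps alpha-tocopherol, the main form of vitamin E, in the body, and both Ttpa-/- groups carried its loss. Age and basal diet went with the genotype and cannot be told apart from it. Each library is 1 mouse, and cells of a mouse were never counted as replicates.

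At a chemical synapse, vesicles loaded with transmitter are docked at the active zone, primed by Munc13 and RIM proteins, and fused with the membrane when calcium binds a synaptotagmin and the SNARE bundle of SNAP-25, syntaxin and synaptobrevin zips up. NSF and its adapters then take the bundle apart for the next round. Sensory neurons of the ganglion release glutamate, and some also peptides, from their central terminals in the spinal cord. Several of these parts exist as paralogues with different kinetics, and large myelinated sensory neurons are known to use another set of them than small unmyelinated ones.

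The 3 vesicular glutamate transporters and the calcium sensor Syt2 divided the neuron classes described below, so the 250 bases upstream of 1 annotated start of each are shown first. They are printed 5′ to 3′ on the gene's strand from RefSeq (build GRCm38.p6), with non-overlapping GC boxes (GGGCGG or its reverse complement CCGCCC) in capitals. They lie at chr7:45163671-45163920 (plus strand) for Slc17a7, chr7:51621580-51621829 (plus strand) for Slc17a6, chr10:89599816-89600065 (minus strand) for Slc17a8 and chr1:134709050-134709299 (plus strand) for Syt2. None of the 4 windows overlaps an annotated exon, and Slc17a6, Slc17a8 and Syt2 have a further annotated start that is not shown. The windows shown for Slc17a8 and Syt2 belong to internal starts. They lie within the annotated genes (chr10:89574020-89621253 and chr1:134646677-134762593), downstream of the 5′ end.
Slc17a7: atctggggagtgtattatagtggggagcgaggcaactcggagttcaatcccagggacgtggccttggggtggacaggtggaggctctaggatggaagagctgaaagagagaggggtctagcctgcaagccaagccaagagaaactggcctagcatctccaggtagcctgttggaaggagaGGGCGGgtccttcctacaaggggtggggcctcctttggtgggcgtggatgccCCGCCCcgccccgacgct
Slc17a6: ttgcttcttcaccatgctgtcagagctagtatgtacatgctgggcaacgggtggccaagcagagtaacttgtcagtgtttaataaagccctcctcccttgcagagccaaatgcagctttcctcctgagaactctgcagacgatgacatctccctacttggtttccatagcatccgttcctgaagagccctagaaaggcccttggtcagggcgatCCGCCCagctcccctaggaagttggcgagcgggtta
Slc17a8: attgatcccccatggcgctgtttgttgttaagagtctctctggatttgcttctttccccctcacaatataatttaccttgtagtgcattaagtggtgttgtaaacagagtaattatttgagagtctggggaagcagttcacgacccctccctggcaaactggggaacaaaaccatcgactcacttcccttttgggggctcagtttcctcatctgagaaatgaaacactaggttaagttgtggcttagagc
Syt2: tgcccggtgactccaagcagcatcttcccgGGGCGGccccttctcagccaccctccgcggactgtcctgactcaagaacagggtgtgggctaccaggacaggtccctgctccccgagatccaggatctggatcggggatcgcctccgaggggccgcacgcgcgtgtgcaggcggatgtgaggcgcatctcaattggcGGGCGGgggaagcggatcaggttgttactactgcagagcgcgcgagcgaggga
Counted without overlap, the windows of Slc17a7 and Syt2 each held 2 GC boxes, that of Slc17a6 held 1 and that of Slc17a8 held none. In the Slc17a7 window a further CCGCCC begins on the last base of the final capitalised box and was not counted. RefSeq windows were found for 32 of the 38 genes. These genes have 43 windows, up to 4 each. A GC box was present in 25 of the 43 (58.1%), against 32.7% of all 32851 windows of the same length, and the median GC content was 58.8% over the 43 windows against 52.4% over all windows. CCAAT (either strand) was present in 10 of the 43 (23.3%), against 33.9% of all windows. TATAAA was present in 3 of the 43 (6.98%), those of Rab3b and Sv2b, against 12.4% of all windows. The cAMP response element TGACGTCA (1.55% of all windows) and TTCAGCACC, the left part of the RE1 element (0.301% of all windows), were both found in a window of Syn1 and of no other gene of the set. These matches describe letters in a window and show no binding.

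The libraries held between 12538785 and 19383933 counts of unique molecular identifiers (UMIs), and 19946 cells were kept as neurons. That name covers every cell not set aside by a non-neuronal score, and no neuronal marker was required. Among the 19946 were 36 cells of a cluster led by Ly6c1 and Hbb-bs and 44 of a cluster led by Ccl4 and Cxcl2. Cells were assigned to a class by marker genes that include none of the 38, and 16041 fell into 1 of 7 gates while 3905 neurons fell into none. The gates follow known sensory classes: NF-like (neurofilament-rich, myelinated mechanoreceptors and proprioceptors, 2345 cells), PEP-like (peptidergic nociceptors, 4692), NP1-like, NP2-like and NP3-like (nonpeptidergic nociceptors and itch neurons, 2740, 645 and 1796) and TH-like (C-fibre low-threshold mechanoreceptors, 3785). The gate for cold-sensing Trpm8 neurons held 38 cells, 3 to 12 per mouse, and was not compared. All fixed markers of NF, NP3 and TH stood out in their gate, but Bmpr1b did not in PEP-like, Mrgprb5 and Lpar5 did not in NP1-like, and Mrgprx1 and Mrgpra1 did not in NP2-like neurons. A gate is a range on a score and not a type. Of the cells that scored highest for the NF, PEP, NP1, NP2, NP3 and TH markers, 195, 572, 109, 128, 28 and 49 lay near the margin. These counts include cells just outside the gate. Ttpa itself had 4, 5, 0 and 3 UMIs in the neurons of mice 654, 657, 670 and 671 and 0 in both wild type mice. At this level, and with 3′ tags that do not show which exons are present, the gene does not check the genotype labels. The same cell barcode occurred in more than 1 library for 248 of 20776 distinct barcodes. Median depth per cell ran from 2448.5 UMIs in PEP-like to 6725 in NP2-like neurons. The level that free RNA adds to a class was not estimated. Slc17a7, at a median of 266 CPM in NF-like neurons, had 1 UMI in NP1-like and 1 in NP2-like neurons over all mice.

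Release genes took the largest share of UMIs in NF-like neurons and the smallest in NP3-like neurons, in all 6 mice. The 38 genes together made up 1.31 to 1.37% of UMIs in NF-like neurons, with a median over mice of 1.33%. PEP-like neurons followed at 0.946 to 0.998%. TH-like neurons held 0.718 to 0.768%, NP1-like 0.673 to 0.724% and NP2-like 0.662 to 0.708%, and these ranges overlap between NP1-like and NP2-like neurons and between NP1-like and TH-like neurons. In NP3-like neurons the share was 0.515 to 0.535%. The ranges of NF-like, PEP-like and NP3-like neurons overlap with those of no other class.

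**Figure D1:**
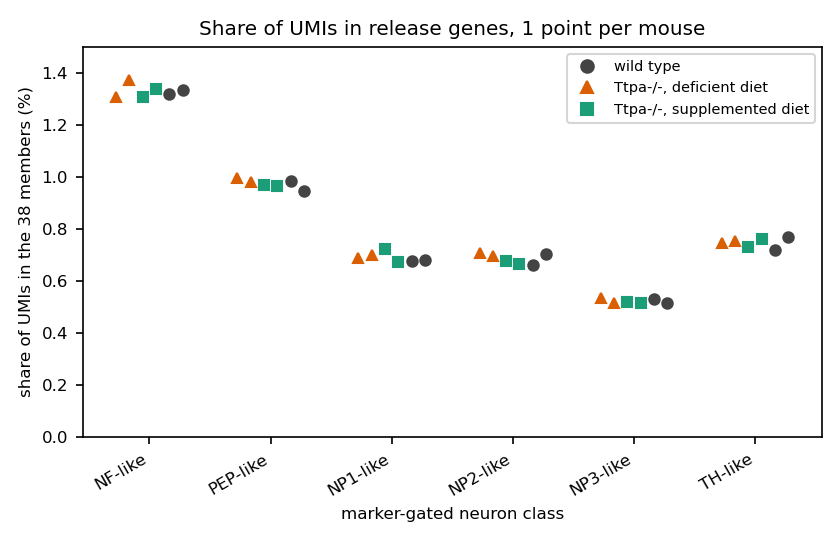
Share of a class's UMIs (%) that fell in the 38 release genes, by marker-gated neuron class. Each point is 1 mouse, by group. NF-like neurons lie at 1.31 to 1.37% and NP3-like neurons at 0.515 to 0.535%, and no point of another class reaches either range.

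Per gene, UMI counts were summed per mouse and class and each class was compared with the mean of the other 5 on the log2 scale, with the mouse as a block (edgeR). A gene is called here when its adjusted p is under 0.05 and the difference is at least 2-fold. Of the 38 genes 36 passed the low-count filter of that fit, and Doc2b and Atp6v0c did not. NF-like neurons had 14 genes called higher, where 18.5% of the 11307 genes tested were, and 5 lower (11.1%). The corresponding counts were 8 higher (13.6%) and 0 lower (5.41%) in PEP-like neurons, where 29 of the 36 had an adjusted p under 0.05 in either direction and DESeq2 called 1 lower. NP1-like neurons had 3 higher (7.42%) and 6 lower (10.5%), and NP2-like neurons 2 higher (6.88%) and 9 lower (7.45%). NP3-like neurons had 2 higher (9.41%) and 12 lower (11.9%), and TH-like neurons 5 higher (10.1%) and 6 lower (10.8%). Calls toward lower that rest on under 30 UMIs in the class number 1 of 5 in NF-like, 4 of 6 in NP1-like, 5 of 9 in NP2-like, 4 of 12 in NP3-like and 2 of 6 in TH-like neurons. In all, 26 of the 36 were called in at least 1 class. The median log2 difference of the 36 was 0.75 in NF-like neurons against 0.06 over all genes tested, 0.31 against 0.09 in PEP-like and -0.71 against -0.02 in NP3-like neurons. It was -0.06 against -0.05 in NP1-like, -0.01 against -0.03 in NP2-like and -0.07 against 0.02 in TH-like neurons. As shares of the 36, the 14 genes higher in NF-like neurons are 38.9% and the 12 lower in NP3-like neurons 33.3%. The 3 higher in NP1-like and the 2 higher in NP2-like neurons make up 8.33 and 5.56%, near the shares called higher over all genes. The 9 lower in NP2-like neurons are 25.0%, against 7.45% of all genes, and the 6 lower in NP1-like neurons 16.7%, against 10.5%.

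**Figure D2:**
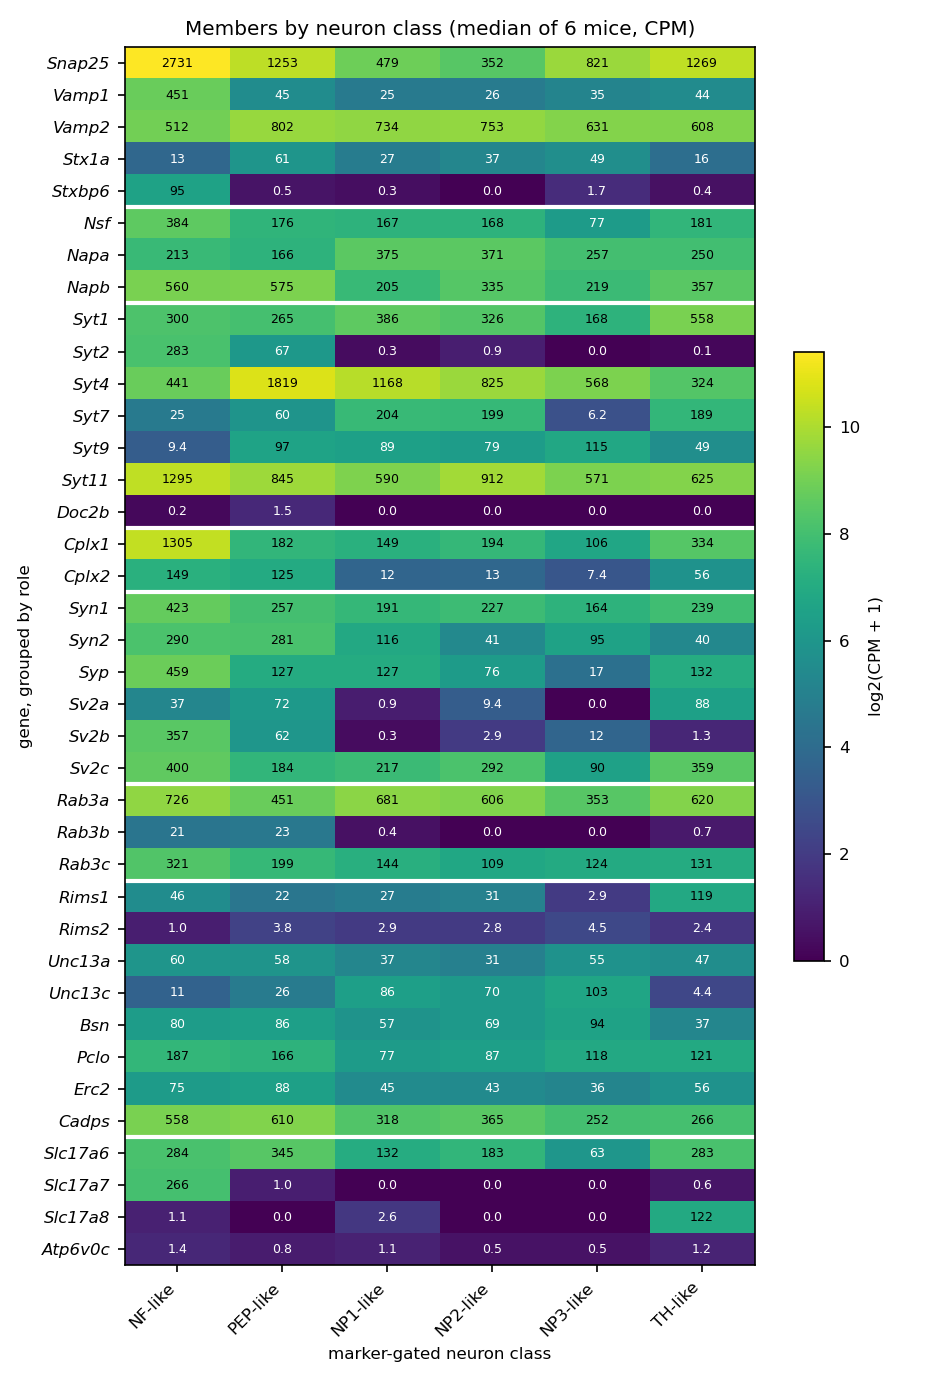
Level of each release gene (rows, grouped by role) in 6 marker-gated neuron classes (columns), as the median over 6 mice in CPM (UMIs scaled to the same total in every mouse and class), printed in each cell; colour is log2(CPM + 1). Rows such as Slc17a7, Stxbp6 and Syt2 are highest in NF-like neurons, while Vamp2 and Rab3a are above 350 CPM in every class.

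Levels below are in CPM and are given as the median over 6 mice, with the lowest and highest mouse in parentheses. UMIs were counted at the 3′ end of transcripts, 1 per captured molecule, so they do not scale with transcript length. Each difference between 2 classes is from the same edgeR fit, in log2 units ± SE over 6 mice. Where a class held under 30 UMIs of a gene, the fitted difference depends on the value the fit adds to 0. The same holds for a difference against the mean of the other classes when 1 of them held so few. In most such cases the level or the UMIs are given in its place.

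The SNARE genes differed in which member was abundant. Snap25, the membrane SNARE of most synapses, was highest in NF-like neurons at 2731 CPM (2299 to 3196) and lowest in NP2-like neurons at 352 CPM (292 to 412). It stood at 1269 (1034 to 1439) in TH-like, 1253 (1118 to 1476) in PEP-like, 821 (708 to 957) in NP3-like and 479 (431 to 554) CPM in NP1-like neurons. The 6 mice of NF-like neurons lay above every mouse of every other class, and NF-like exceeded the next class, TH-like, by 1.01 ± 0.05, adjusted p = 5.91e-31. TH-like and PEP-like neurons also passed the test (0.10 ± 0.05, adjusted p = 0.0406), but TH-like was the higher of them in only 2 of 6 mice by CPM.

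Vamp1 and Vamp2 encode the vesicle SNAREs synaptobrevin-1 and -2. Vamp1 reached 451 CPM (343 to 514) in NF-like neurons and 24.5 to 45.4 CPM (class medians) elsewhere. NF-like neurons exceeded PEP-like, the next class, by 3.26 ± 0.07, adjusted p = 1.02e-51. Vamp2 varied little, from 512 CPM (495 to 576) in NF-like to 802 CPM (736 to 813) in PEP-like neurons, and NF-like was the lowest class in every mouse against TH-like, the class above it (0.33 ± 0.05, adjusted p = 9.58e-09). As a share of the UMIs of both genes, Vamp1 made up 45.1% (40.9 to 50.8) in NF-like neurons. In the other 5 classes it made up 3.16% (NP1-like) to 6.77% (TH-like).

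Stx1a, the syntaxin of the same bundle, ran the other way. It was highest in PEP-like neurons at 61.4 CPM (59.8 to 79.3), followed by NP3-like at 49 CPM (29.1 to 57.3), with a difference of 0.36 ± 0.12, adjusted p = 0.00745. NF-like neurons were lowest at 13 CPM (6.15 to 19.6), below TH-like neurons in all 6 mice (0.49 ± 0.16, adjusted p = 0.00602). Stxbp6 encodes amisyn, a SNARE-binding protein without a membrane anchor. It was found at 95.5 CPM (51.7 to 119) in NF-like neurons from 1364 UMIs, and from 11, 10, 7 and 6 UMIs in PEP-like, NP3-like, TH-like and NP1-like neurons. NP2-like neurons held 0 UMIs of 4832287, which allows up to 0.621 CPM by counting error alone.

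Of the genes that take SNARE bundles apart, the ATPase Nsf was highest in NF-like neurons at 384 CPM (357 to 419) and lowest in NP3-like neurons at 76.8 CPM (65.2 to 93.3). Its other 4 classes had medians of 167 to 181 CPM, and no neighbouring pair among them passed the test. NF-like exceeded TH-like neurons by 1.03 ± 0.05, adjusted p = 4.37e-28, and NP1-like exceeded NP3-like neurons by 1.26 ± 0.07, adjusted p = 2.29e-25. Its adapters split: Napa was highest in NP1-like (375 CPM, 351 to 409) and NP2-like neurons (371 CPM, 295 to 407) and lowest in PEP-like neurons (166 CPM, 133 to 196). Napb was highest in PEP-like (575 CPM, 563 to 618) and NF-like neurons (560.1 CPM, 533 to 645), which did not pass the test against each other, and lowest in NP1-like neurons (205 CPM, 189.5 to 213). Neither adapter reached a 2-fold difference in any class.

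Among the calcium sensors, Syt2 was, like Vamp1, highest in NF-like neurons. Syt1 and Syt2 both trigger fast synchronous release. Syt2 was at 283 CPM (226 to 308) in NF-like and 66.9 CPM (55 to 75.1) in PEP-like neurons, which differed by 2.09 ± 0.07, adjusted p = 2.03e-37. The other 4 classes held 4 to 7 UMIs each over all mice. Syt1 was highest in TH-like neurons at 558 CPM (486 to 641), above NP1-like neurons at 386 CPM (324 to 406) in all 6 mice (0.48 ± 0.06, adjusted p = 6.39e-10), and lowest in NP3-like neurons at 168 CPM (139 to 181). Syt2 made up 49.4% (41.3 to 54.2) of the UMIs of both genes in NF-like neurons and 19.95% (19.1 to 21.6) in PEP-like neurons.

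**Figure D3:**
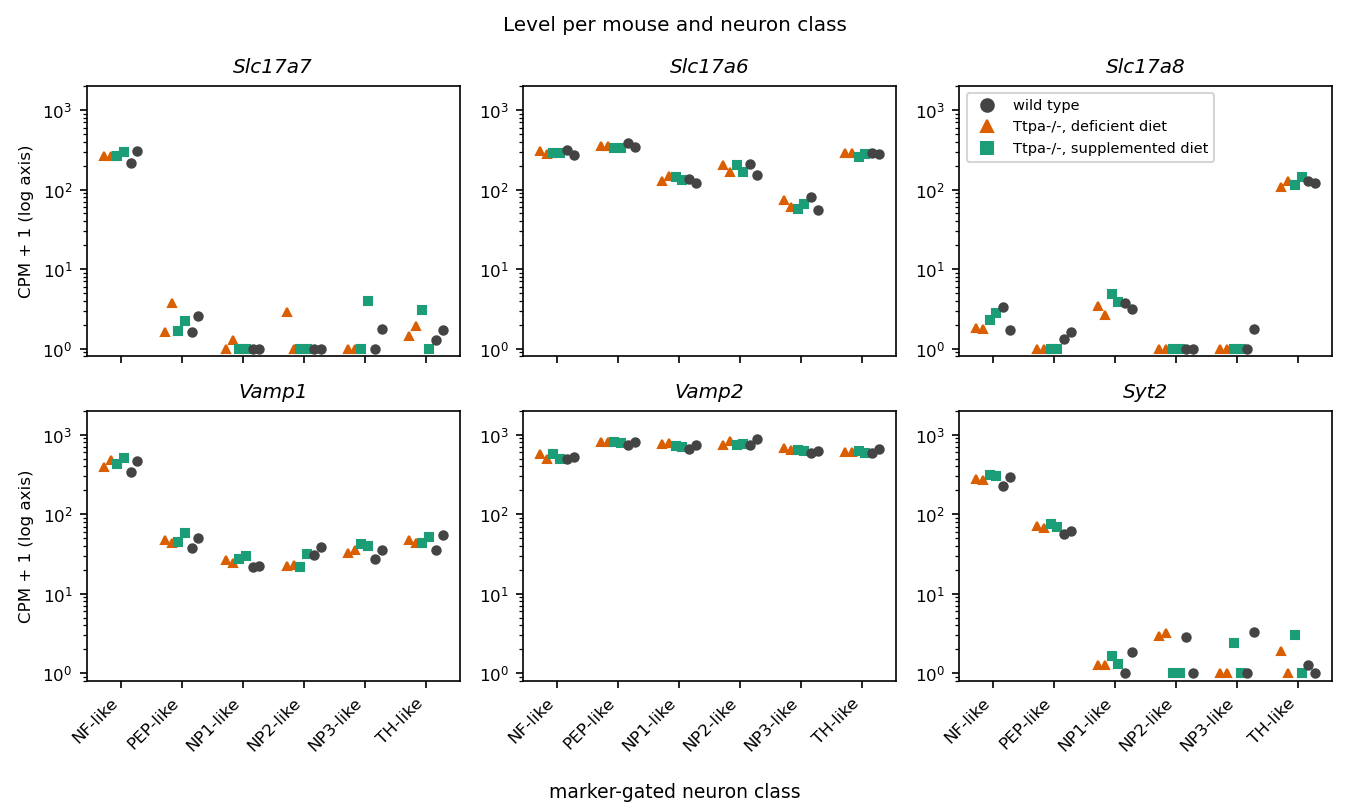
Level in each mouse (points, CPM + 1 on a log axis) of 3 vesicular glutamate transporters, 2 synaptobrevins and Syt2, by marker-gated neuron class. Slc17a7 lies above 200 CPM in NF-like neurons and Slc17a8 above 100 CPM in TH-like neurons in all 6 mice; Vamp2 stays between 495 and 879 CPM in every class.

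Syt7, a high-affinity sensor of asynchronous release and vesicle replenishment, was high in other classes than Syt2. It was highest in NP1-like (204 CPM, 173 to 245), NP2-like (199 CPM, 147 to 220.1) and TH-like neurons (189 CPM, 136 to 201). PEP-like neurons followed at 59.9 CPM (45 to 73.1), below TH-like by 1.72 ± 0.08, adjusted p = 3.97e-32. NF-like neurons held 24.9 CPM (21.3 to 41.7) and NP3-like neurons 6.15 CPM (2.01 to 8.81). NP1-like exceeded NP2-like neurons by 0.18 ± 0.08, adjusted p = 0.0488, in 4 of 6 mice. Syt9, another fast sensor, was lowest in NF-like neurons at 9.4 CPM (8.38 to 18.3) and highest in NP3-like neurons at 115 CPM (100.3 to 129). The class below it, PEP-like, held 96.7 CPM (88.1 to 122) (0.32 ± 0.08, adjusted p = 0.000481, higher in 5 of 6 mice).

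Syt4 and Syt11, synaptotagmins of vesicle trafficking with little or no calcium binding of their own, ran in different orders. Syt4 was highest in PEP-like neurons at 1819 CPM (1605 to 2241) and lowest in TH-like neurons at 324 CPM (292 to 348). All 5 neighbouring classes in its order (PEP, NP1, NP2, NP3, NF, TH) passed the test, and each was higher than the next in all 6 mice. PEP-like exceeded NP1-like neurons by 0.45 ± 0.05, adjusted p = 3.8e-13. Syt11 was highest in NF-like neurons at 1295 CPM (1108 to 1427) and stayed under a 2-fold difference in every class. Doc2b, a sensor of spontaneous release, was found from 25 UMIs in PEP-like neurons, at 1.52 CPM (0.634 to 3.21), from 4 in NF-like and 1 in TH-like neurons, and from none in the NP classes.

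The complexins bind the assembled SNARE bundle and set its readiness to fuse. Cplx1 was at 1305 CPM (1146 to 1333) in NF-like neurons, 334 CPM (284 to 372) in TH-like neurons and lowest in NP3-like neurons at 106 CPM (97.2 to 123). NF-like exceeded TH-like neurons by 1.81 ± 0.05, adjusted p = 1.42e-44. Cplx2 was high in NF-like (149 CPM, 111 to 163) and PEP-like neurons (125 CPM, 104 to 167), which did not pass the test against each other (0.12 ± 0.07, adjusted p = 0.12). TH-like neurons held 55.5 CPM (41.2 to 69.4) and the NP classes 7.42 to 13.3 CPM. Cplx1 therefore made up 58.7% (54.3 to 60.9) of the UMIs of both genes in PEP-like neurons and 89.8% (89.1 to 91.2) in NF-like neurons.

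Among vesicle proteins, the gradient over classes was steep for some genes and flat for others. Synaptophysin (Syp), a major protein of the vesicle membrane, was at 459 CPM (409.9 to 481) in NF-like and 17.3 CPM (13.9 to 22.1) in NP3-like neurons. The other 4 classes lay between 75.8 CPM (NP2-like) and 132 CPM (TH-like). NF-like exceeded TH-like neurons by 1.72 ± 0.06, adjusted p = 1.17e-37, and NP2-like exceeded NP3-like neurons by 2.02 ± 0.15, adjusted p = 3.14e-19. The synapsins tether vesicles to each other and to actin. Syn2 was at 290.5 CPM (265 to 313) in NF-like and 281 CPM (248 to 297) in PEP-like neurons, which did not pass the test against each other. It was lowest in NP2-like (40.9 CPM, 19.3 to 45.7) and TH-like neurons (39.8 CPM, 31.2 to 43.6). Syn1 was also highest in NF-like neurons, at 423 CPM (402 to 449), but reached a 2-fold difference in no class.

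SV2 proteins are vesicle glycoproteins that regulate release and serve as entry receptors for botulinum neurotoxin A. Sv2b was at 357 CPM (339 to 375) in NF-like and 61.9 CPM (46 to 80.8) in PEP-like neurons, which differed by 2.46 ± 0.08, adjusted p = 5.13e-39. NP3-like neurons held 12.3 CPM (8.03 to 24.7), and NP1-like, NP2-like and TH-like neurons 8, 12 and 26 UMIs. Sv2a had another order: TH-like neurons were highest at 87.8 CPM (70.2 to 94), then PEP-like at 72.3 CPM (65.6 to 87.5) (0.32 ± 0.08, adjusted p = 0.000159) and NF-like at 36.5 CPM (29.2 to 49.3). NP3-like neurons held 2 UMIs of Sv2a and NP1-like neurons 15. Sv2c was present in every class, from 90.2 CPM (67.2 to 122) in NP3-like to 399.7 CPM (326 to 418) in NF-like neurons, where NF-like and TH-like neurons did not pass the test against each other. It made up 99.5% (99.1 to 99.7) of the family's UMIs in NP1-like and 50.5% (44.9 to 51.6) in NF-like neurons.

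The Rab3 GTPases sit on vesicles and bind RIM at the active zone. Rab3a was abundant everywhere, from 353 CPM (266 to 402) in NP3-like to 726 CPM (657 to 781) in NF-like neurons, and was called in no class. Rab3c was highest in NF-like neurons at 321 CPM (264 to 357), above PEP-like neurons by 0.62 ± 0.06, adjusted p = 1.36e-13. Rab3b was found mainly in PEP-like (22.5 CPM, 15.8 to 34.9) and NF-like neurons (20.9 CPM, 17.1 to 26.5), apart from 15 UMIs in TH-like, 8 in NP1-like and 2 in NP2-like neurons. NP3-like neurons held 0 UMIs of 6365108, which allows up to 0.471 CPM.

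Genes of the active zone and of priming differed by paralogue. Rims1, the scaffold that links vesicles to calcium channels, was highest in TH-like neurons at 119 CPM (99.7 to 123), above NF-like neurons at 46.3 CPM (35.9 to 57.6) in all 6 mice (1.45 ± 0.08, adjusted p = 2.5e-26). NP3-like neurons held 2.88 CPM (1.07 to 3.92), from 18 UMIs. Rims2 was low in every class, with class medians of 0.961 to 4.53 CPM. NF-like neurons were called lower than the mean of the others for it, but no neighbouring pair of classes passed the test.

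Unc13a and Unc13c encode Munc13-1 and Munc13-3, which open syntaxin to prime vesicles. Unc13a was nearly even, from 30.6 CPM (26.6 to 38.6) in NP2-like to 60.1 CPM (57.7 to 67.1) in NF-like neurons, and was called in no class. Unc13c was at 102.6 CPM (95.4 to 109) in NP3-like, 85.5 CPM (81.8 to 96) in NP1-like and 69.9 CPM (62.6 to 82) in NP2-like neurons. It stood at 26 CPM (19 to 30.5) in PEP-like, 10.9 CPM (9.18 to 13.7) in NF-like and 4.38 CPM (4.13 to 5.85) in TH-like neurons. NP2-like exceeded PEP-like neurons by 1.58 ± 0.11, adjusted p = 6.5e-21, so the 3 NP classes stood above the other 3 in all 6 mice. Bassoon (Bsn) was lowest in TH-like neurons at 37.1 CPM (28.7 to 41.5) and otherwise between 57.2 and 93.6 CPM. Piccolo (Pclo), Erc2 and Cadps, the CAPS factor of dense-core vesicle release, were highest in NF-like or PEP-like neurons and were called in no class. Cadps was at 609.9 CPM (561 to 665) in PEP-like and 558 CPM (464 to 623) in NF-like neurons.

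The 3 vesicular glutamate transporters were divided by class. Slc17a6 (VGLUT2) was present in every class. It was highest in PEP-like neurons at 345 CPM (332 to 379), followed by NF-like at 284 CPM (272 to 313) and TH-like at 283 CPM (258 to 288), and lowest in NP3-like neurons at 62.7 CPM (53.8 to 80.3). NF-like and TH-like neurons did not pass the test against each other, and NP1-like exceeded NP3-like neurons by 1.16 ± 0.08, adjusted p = 2.29e-21. Slc17a7 (VGLUT1) was at 266 CPM (215 to 299.6) in NF-like neurons, and the other 5 classes held 1 to 20 UMIs each over all mice. PEP-like neurons, the next class, were at 0.969 CPM (0.614 to 2.7).

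Slc17a8 (VGLUT3) was at 122 CPM (106 to 141) in TH-like neurons, against 2.6 CPM (1.63 to 3.85) in NP1-like neurons, the next class (5.41 ± 0.13, adjusted p = 1.04e-45). NF-like neurons followed at 1.07 CPM (0.732 to 2.36) from 18 UMIs, below NP1-like neurons in 6 of 6 mice. NP2-like neurons held 0 UMIs of Slc17a8, which allows up to 0.621 CPM. Of the UMIs of the 3 transporters, Slc17a7 made up 48.2% (40.5 to 52.3) in NF-like neurons. Slc17a8 made up 30.3% (27.2 to 33.4) in TH-like neurons. In PEP-like neurons Slc17a6 alone made up 99.7% (99.2 to 99.8). Atp6v0c, the proteolipid of the pump that fills vesicles with protons, was at 0.474 to 1.44 CPM in all classes. Processed pseudogenes of Atp6v0c are annotated, so its reads may be split and its level is uncertain.

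Set in order, the class with the highest median was NF-like for 19 of the 38 genes, PEP-like for 9, TH-like and NP3-like for 4 each and NP1-like for 2. For 26 of the 36 genes tested, the class with the highest median also passed the test against the class ranked next. These were 13 of the NF-like, 6 of the PEP-like, 4 of the TH-like, 2 of the NP3-like and 1 of the NP1-like genes. For Vamp2 and Rab3a, both among the 26, the fitted difference had the opposite sign to the medians (PEP-like against NP2-like -0.15 ± 0.05, adjusted p = 0.00925, and NF-like against NP1-like -0.15 ± 0.06, adjusted p = 0.0129), so their first place is not settled. The lowest median was in NP3-like neurons for 16 genes. The span from the highest to the lowest class median was smallest for Vamp2 (1.57-fold) and Unc13a (1.96-fold). It was 33.2-fold for Syt7, 26.5-fold for Syp and 23.4-fold for Unc13c, among genes with enough UMIs in their lowest class.

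Per class, the largest contrasts against the mean of the other 5 classes were as follows, on the log2 scale. In NF-like neurons the list began with Slc17a7, Stxbp6, Syt2, Sv2b and Rab3b, whose levels are given above. For each of them some other classes held under 30 UMIs. PEP-like neurons, however, held 944 UMIs of Syt2, 965 of Sv2b and 364 of Rab3b. The median of Rab3b was higher in PEP-like than in NF-like neurons, not past the test. Vamp1 (3.56 ± 0.05), Cplx1 (2.69 ± 0.03), Syp (2.47 ± 0.05), Cplx2 (2.37 ± 0.07), Sv2a, Snap25 (1.77 ± 0.03), Syn2 (1.63 ± 0.05), Nsf (1.28 ± 0.04) and Rab3c (1.05 ± 0.05) made up the rest of the 14. Sv2a was called higher there at 36.5 CPM, below its levels in TH-like (87.8 CPM) and PEP-like neurons (72.3 CPM). The 5 called lower were Syt9 (-3.05 ± 0.10), Unc13c (-1.88 ± 0.11), Syt7 (-1.67 ± 0.11), Stx1a (-1.57 ± 0.12) and Rims2 (18 UMIs). PEP-like neurons shared 6 genes called higher with NF-like neurons (Rab3b, Syt2, Sv2a, Sv2b, Cplx2 and Syn2) and added Syt4 (1.52 ± 0.03) and Stx1a (1.25 ± 0.08).

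In NP1-like neurons the 3 genes called higher were Syt7 (2.21 ± 0.06), Unc13c (1.94 ± 0.06) and Slc17a8. Slc17a8 was called there at 2.6 CPM, against 122 CPM in TH-like neurons, and the call was lost with wild type mice only. Genes called lower there were Sv2b, Slc17a7, Sv2a, Syt2, Cplx2 (-1.72 ± 0.12) and Vamp1 (-1.16 ± 0.08). NP2-like neurons had Syt7 (1.99 ± 0.08) and Unc13c (1.5 ± 0.10) higher. Their 9 lower genes included Snap25 (-1.60 ± 0.05), Syn2 (-1.59 ± 0.10), Cplx2 (-1.41 ± 0.17) and Vamp1 (-1.03 ± 0.11), beside Stxbp6, Slc17a8, Slc17a7, Sv2b and Syt2 with at most 12 UMIs each. The call of Slc17a7 there rests on 1 UMI and was lost without any 1 of mice 657, 670, 671, 698 and 699, that of Slc17a8 was lost without mouse 699, and that of Slc17a7 in NP1-like neurons without mouse 654. In NP3-like neurons Unc13c (2.07 ± 0.08) and Syt9 (1.15 ± 0.07) were higher. The lower ones were Sv2a, Rab3b, Syt2, Syt7 (-4.09 ± 0.15), Rims1 (18 UMIs), Syp (-3.02 ± 0.11), Cplx2 (-2.33 ± 0.17), Slc17a6 (-1.84 ± 0.07), Sv2c (-1.56 ± 0.08), Cplx1 (-1.46 ± 0.06), Nsf (-1.40 ± 0.06) and Syt1 (-1.10 ± 0.07). TH-like neurons had Slc17a8, Sv2a, Rims1 (119 CPM), Syt7 (1.82 ± 0.06) and Syt1 (1.07 ± 0.05) higher, and Syt2, Unc13c (-3.23 ± 0.12), Sv2b, Syn2 (-1.74 ± 0.07), Syt4 (-1.40 ± 0.04) and Bsn (-1.06 ± 0.07) lower.

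Other genes of the pathway, on 3 lists that share no gene with the 38, were read in the same fit. Of 40 further genes of the release machinery 34 were tested. In NF-like neurons 14 were called higher and 5 lower, where 18.5 and 11.1% of all genes were, and in NP3-like neurons 0 higher and 13 lower (9.41 and 11.9%). PEP-like neurons had 9 higher and 3 lower (13.6 and 5.41%), and TH-like neurons 7 and 3 (10.1 and 10.8%). The balance went the other way from that of the 38 genes in TH-like, NP1-like and NP2-like neurons. NP1-like neurons had 7 higher and 3 lower (7.42 and 10.5%), and NP2-like neurons 5 and 3 (6.88 and 7.45%). The list's median log2 difference was 0.82 in NF-like, 0.42 in PEP-like, 0.01 in TH-like, -0.09 in NP1-like, -0.14 in NP2-like and -0.62 in NP3-like neurons. Synpr (synaptoporin, a relative of synaptophysin) separated the small neurons: it was at 1320.3 CPM (1226 to 1534) in NP1-like, 927 CPM (858 to 1159) in TH-like, 908 CPM (824 to 966) in NP2-like, 20.4 CPM (16.2 to 24.8) in PEP-like and 10.9 CPM (4.27 to 17.4) in NP3-like neurons. Rab27b, a GTPase of secretory granules, was at 449 CPM (408 to 511) in NP1-like and 33.6 CPM (28.4 to 43) in NF-like neurons. Syt3 (65.4 CPM, 56.8 to 68.9), Rims4 (10.9 CPM, 8.02 to 15.7) and Syt12 (8.73 CPM, 6.62 to 13.4) had the largest differences upward in NF-like neurons, and Syt5 (4.65 CPM, 2.5 to 5.37) the largest downward. Unc13b was also lower there (1.79 CPM, 0.654 to 4.74). In NP1-like neurons Syt6 was higher (1.95 ± 0.08), and Syt3 and Stxbp5l were lower, both at class medians of 0.

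In NP2-like neurons Syt5 was higher (1.80 ± 0.09), and Lin7b (5.49 CPM, 2.34 to 7.73), Ppfia4 (-1.27 ± 0.21) and Syt3 were lower. Rph3a, the rabphilin that binds Rab3, was at 1.42 CPM (0 to 2.94) in NP3-like neurons against a median of 141 CPM over the sums of the other classes, and Rimbp2 had 0 UMIs there, which allows up to 0.471 CPM. PEP-like neurons had Rimbp2 (20.4 CPM, 15.85 to 22.9), Stxbp5l (8.04 CPM, 3.49 to 9) and Rims4 (3.77 CPM, 2.37 to 4.16) higher, and Synpr, Sncb (-3.35 ± 0.10) and Cadps2 (-1.58 ± 0.17) lower. TH-like neurons had Syt3 (13.9 CPM, 10.3 to 14.9) higher beside Synpr, and Unc13b (2.65 CPM, 1.86 to 5.37) and Stxbp5l lower. Of the 23 vesicle endocytosis genes, all tested, 5 were called higher and 1 lower in NF-like neurons, where 18.5 and 11.1% of all genes were. The other classes had 0 to 2 higher and 0 to 3 lower, with 2 of each in NP3-like neurons (9.41 and 11.9%), where this list's median difference was -0.09. Bin1 (1.48 ± 0.05) and Ap2a2 (1.05 ± 0.05) were higher in NP3-like neurons, and Ap2a2 was lower in TH-like neurons (-2.70 ± 0.07). Of the 15 further proton pump genes, all tested, 2 were called higher and 0 lower in NF-like neurons (18.5 and 11.1% of all genes), where the list's median difference was -0.01. NP1-like neurons had 2 higher and 1 lower (7.42 and 10.5%) at a median of 0.35. NP3-like and PEP-like neurons had 0 higher and 1 lower each. No proton pump gene was called in NP2-like or TH-like neurons.

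Within the NF-like and PEP-like classes the paralogues differed again between clusters of cells, which were built without the 38 genes and are described here by their leading genes with no test. In the cluster led by Pvalb and Spp1 (658 cells), Slc17a7 was at 577 CPM (493 to 685) and Slc17a6 at 40.7 CPM (22.7 to 52.4), so that Slc17a7 made up 93.3% (91.8 to 96.3) of the transporter UMIs. The cluster led by Calb1 and Ntng1 (720 cells) held both, with Slc17a7 at 54.8% (46.1 to 58). In the clusters led by Cadps2 and Ntrk2 (580 cells) and by Ptgfr and S100a16 (594 cells) that share was 32.7% (25.4 to 34.4) and 19.1% (12 to 21.1). The 4 ranges over mice do not overlap.

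The same 4 clusters divided the SNARE and sensor paralogues. Vamp1 made up 71.1% (70.5 to 76.4) of synaptobrevin UMIs in the Pvalb cluster and 66.8% (61 to 73.3) in the Calb1 cluster, 37.2% (34.5 to 39) in the Ptgfr cluster and 12.1% (8.54 to 14.6) in the Cadps2 cluster. Syt1 was at 915 CPM (834 to 1046) in the Cadps2 cluster and at 120.1 (92.6 to 127), 127 (91.9 to 149) and 90.7 (69.8 to 111) CPM in the Pvalb, Calb1 and Ptgfr clusters. Syt2 ran opposite, at 14.7 CPM (8.17 to 19.7) in the Cadps2 cluster and 448 (383 to 509), 421 (362 to 602) and 259.7 (225 to 303) CPM in the other 3. Stxbp6 was found in the Pvalb (266 CPM, 197 to 299) and Calb1 clusters (162 CPM, 73.3 to 274), at 5.03 CPM (3.46 to 9.35) in the Ptgfr cluster, and at a median of 0 in the Cadps2 cluster. Rab3b was the other way round, at 76.5 CPM (61.2 to 99.7) in the Cadps2 cluster and at 0 in every mouse in the Pvalb cluster. Cplx2 was at 350.1 CPM (299 to 441) in the Ptgfr cluster and at 5.04 CPM (2.28 to 10.4) in the Pvalb cluster, and Snap25 reached 5029 CPM (4451 to 6109.9) in the Pvalb cluster. An NF-like level is therefore a value over clusters that differ.

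**Figure D4:**
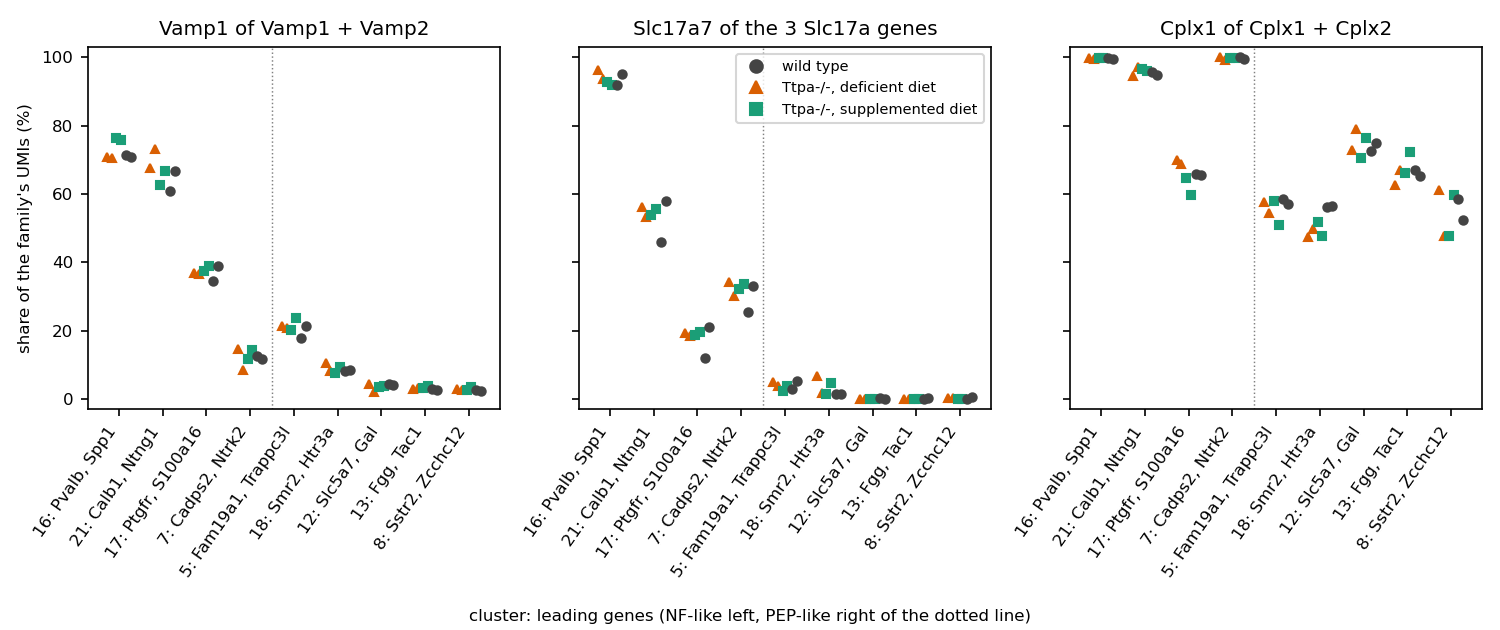
Share (%) of Vamp1 among the 2 synaptobrevin genes, of Slc17a7 among the 3 vesicular glutamate transporters and of Cplx1 among the 2 complexins, in clusters of NF-like (left of the dotted line) and PEP-like cells (right). Each point is 1 mouse. The cluster led by Foxp2 and Hjurp, of whose 284 cells 67 passed the NF gate, is not drawn. The PEP-like cluster led by Dcn and Nhlh2 (median Cplx1 share 19.9%) is not drawn either. The median share of Vamp1 is 71.1% in the Pvalb cluster and 12.1% in the Cadps2 cluster.

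In the PEP-like clusters Slc17a7 stayed at or under a median of 17.4 CPM, the value of the cluster led by Fam19a1 and Trappc3l (813 cells). That cluster and the one led by Smr2 and Htr3a (492 cells) also held most of the Sv2b and Cplx2 UMIs of the 6 PEP-like clusters. Sv2b was at 278 CPM (229 to 351) and 257 CPM (192 to 305) in them, against 2.23 CPM (0.884 to 5.7) in the cluster led by Sstr2 and Zcchc12 (2490 cells). Cplx2 was at 521 (469.8 to 626) and 305 (227 to 362) against 50.5 (40.7 to 55.9) CPM. Syt4 was highest in the Sstr2 cluster at 3169 CPM (2801 to 3573) and lowest in the Fam19a1 cluster at 621 CPM (519.5 to 678). Only 271 of the 813 cells of the Fam19a1 cluster and 248 of the 492 of the Smr2 cluster passed the PEP gate, so these 2 clusters enter the PEP-like sums in part.

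The 3 group contrasts asked whether loss of Ttpa with or without vitamin E changed the level of release genes. They share mice (both contrasts against wild type use the same 2 wild type mice, and both diets appear in 2 contrasts), so their values are not independent. No release gene passed the threshold (adjusted p under 0.05, edgeR) in any of the 3 contrasts, in all neurons or in any of 6 classes. Over these 651 tests 13 had an unadjusted p under 0.05 (2.00%), against 3.52% over all genes tested. DESeq2 and limma-voom likewise called 0 of them in every cell set.

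Over all neurons 37 of the 38 genes were tested, and edgeR called 0 of 13290 genes in each contrast, a share of 0% in each. Of the 37, 2 had an unadjusted p under 0.05 in deficient against wild type, 3 in supplemented against wild type and 0 in deficient against supplemented, beside 529, 501 and 324 of all genes. Syt7 was at 137 and 122 CPM in the deficient, 145 and 121 in the supplemented and 98.2 and 106 in the wild type mice. Both Ttpa-/- groups lay above both wild type mice, by 0.34 ± 0.13 (adjusted p = 0.989) and 0.35 ± 0.13 (adjusted p = 0.999) by edgeR. Snap25 was at 992 and 1334 CPM in the deficient, 1039.8 and 1242 in the supplemented and 1436 and 1502 in the wild type mice, and both wild type mice were the highest. Its differences were -0.33 ± 0.16 for deficient and -0.39 ± 0.16 for supplemented against wild type (edgeR, adjusted p = 0.989 and 0.999).

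Slc17a7 and Sv2b, both NF-like genes, had the lowest values in a deficient mouse and the highest in a wild type mouse. Slc17a7 was at 30.2 and 42.6 CPM in the deficient, 41.1 and 58.8 in the supplemented and 32.1 and 78 in the wild type mice, and the groups overlap (-0.59 ± 0.33 for deficient against wild type). Sv2b was at 55.2 and 83, 80.0 and 106 and 74.8 and 129 CPM in the same order of groups (-0.55 ± 0.25, adjusted p = 0.989 by edgeR). In an alternative fit with no low-count filter these were the only release genes called in deficient against wild type, at -0.60 ± 0.15 (adjusted p = 0.0238) and -0.56 ± 0.14 (adjusted p = 0.0253), where 77 of 19257 genes were called. Without mouse 699 the difference of Slc17a7 was 0.18 and that of Sv2b -0.11 in the edgeR fit. Leaving out 1 mouse moved 36 of 51 named group differences by over 1.5 times, and none of the 51 was called in that fit.

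The share of neuron UMIs that came from NF-like cells was 9.37 and 14.8% in the deficient, 13.4 and 17.7% in the supplemented and 12.9 and 22.5% in the wild type mice, in the same order of mice as the levels above. For NP1-like cells, rich in Syt7 and poor in Snap25, it was 29.2 and 21.2%, 27.2 and 20.6%, and 17.6 and 12.6%. The part of these shares in the all-neuron differences was not tested. NF-like cells numbered 345 and 302 in the deficient, 455 and 437 in the supplemented and 316 and 490 in the wild type mice, at median depths of 3142 and 7906.5, 3019 and 5839, and 6260.5 and 7607.5 UMIs per cell. NP1-like cells numbered 706 and 353, 644 and 452, and 333 and 252, at 5261 and 10485, 4826 and 6931, and 8918 and 9166 UMIs per cell. Of the 6 mice, 654 and 670 thus had the shallowest cells of both classes and the most NP1-like cells. Within NF-like neurons Slc17a7 differed by -0.01 ± 0.16 between deficient and wild type mice and Sv2b by -0.06 ± 0.14. Within NP1-like neurons Syt7 differed by 0.17 ± 0.13 for deficient and 0.25 ± 0.13 for supplemented against wild type. Snap25 had a negative sign within each class. Supplemented against wild type it was -0.32 ± 0.16 in NF-like, -0.30 ± 0.17 in PEP-like, -0.23 ± 0.12 in NP1-like, -0.30 ± 0.20 in NP2-like, -0.26 ± 0.17 in NP3-like and -0.31 ± 0.20 in TH-like neurons, none past the threshold. Deficient against wild type it was -0.16 ± 0.16, -0.17 ± 0.17, -0.10 ± 0.12, -0.10 ± 0.19, -0.17 ± 0.17 and -0.15 ± 0.20 in the same order of classes, each nearer to 0 than the -0.33 ± 0.16 of all neurons, and the mice of the 2 groups overlapped in every class. These classes come from the same mice and are not independent.

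**Figure D5:**
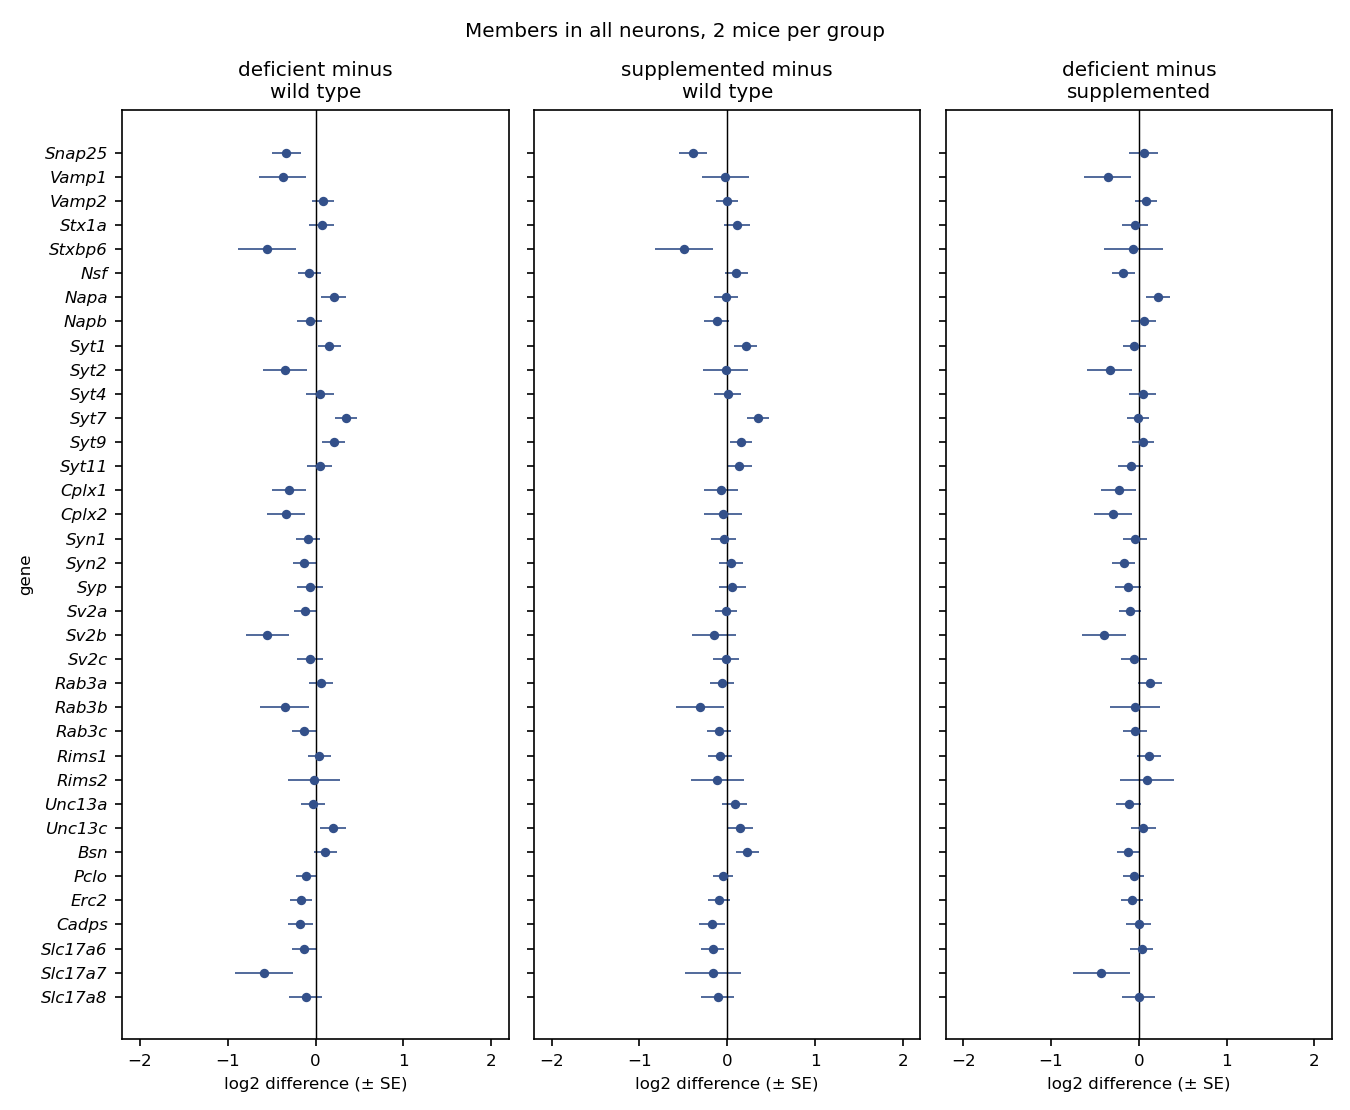
Log2 difference ± SE (edgeR) of the release genes between groups in all neurons, 2 mice per group, for deficient minus wild type, supplemented minus wild type and deficient minus supplemented; Atp6v0c, with under 2 CPM in every mouse, is left out. No gene passed the threshold, and Slc17a7 (-0.59) is the farthest below 0 on the left.

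The other genes with the smallest p in all neurons were Stxbp6 (-0.56 ± 0.33) in deficient against wild type, and Atp6v0c (-1.08 ± 0.47, from 94 UMIs in all), Bsn (0.23 ± 0.13) and Syt1 (0.21 ± 0.13) in supplemented against wild type. In deficient against supplemented they were Sv2b (-0.40 ± 0.25), Napa (0.22 ± 0.14), Atp6v0c (0.74 ± 0.50), Cplx2 (-0.29 ± 0.22) and Nsf (-0.17 ± 0.13). The median absolute log2 difference of the 37 genes was 0.13, 0.10 and 0.08 in the 3 contrasts, with a median SE of 0.14 in each.

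In NF-like neurons 34 of the genes were tested and 0 called, where 0.00985%, 0.0295% and 0% of 10154 genes were called in deficient against wild type, supplemented against wild type and deficient against supplemented. Rims1 was at 57.6 and 53.7 CPM in the deficient, 41.9 and 50.7 in the supplemented and 35.9 and 41 in the wild type mice. The deficient mice were the highest of the 6, at 0.48 ± 0.18 against wild type (adjusted p = 0.9998, edgeR), and Syt7 had the next smallest p (0.43 ± 0.23). Syt7 was at 41.7 and 24.9 CPM in the deficient and 21.3 and 23.9 in the wild type mice, and without mouse 654 its difference was 0.12. Stxbp6 was at 84.3 and 110.2, 51.7 and 98.4 and 119 and 92.5 CPM in the same groups, and mouse 670 alone was low. It differed by -0.47 ± 0.21 between supplemented and wild type mice and by 0.36 ± 0.22 between deficient and supplemented mice, and without mouse 670 the latter was -0.00272. Napb was at 0.21 ± 0.14 in that last contrast.

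In PEP-like neurons 33 were tested and 0 called, where 0.0285%, 0.209% and 0.114% of 10517 genes were called in the same 3 contrasts. The smallest p values belonged to Sv2b (-0.36 ± 0.19) and Napa (0.29 ± 0.15) in deficient, and to Unc13c (-0.48 ± 0.23, adjusted p = 0.9995, edgeR) and Snap25 in supplemented against wild type. Unc13c was at 20.7 and 22.9 CPM in the supplemented and 30.5 and 29.2 CPM in the wild type mice. Between the diets they belonged to Cplx2 (-0.34 ± 0.17) and Syt7 (-0.35 ± 0.19). In TH-like neurons 30 were tested and 0 called (0%, 0% and 0% of 9842 genes). Erc2 (-0.34 ± 0.18) and Stx1a (0.50 ± 0.29), Syn2 (0.37 ± 0.19) and Snap25, and Unc13a (-0.28 ± 0.21) and Syt1 (-0.22 ± 0.18) had the smallest p values in the 3 contrasts.

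In NP1-like neurons 29 were tested and 0 called (0.0819%, 0.256% and 0.0205% of 9763 genes). Unc13a was at 42.8 and 33.6 CPM in the deficient, 40.8 and 42.3 in the supplemented and 28.2 and 32 in the wild type mice, which were the lowest. Its differences against wild type were 0.32 ± 0.18 for deficient and 0.45 ± 0.18 for supplemented mice (adjusted p = 0.583 for the latter, edgeR). Bsn was at 0.30 ± 0.15 for supplemented mice, and Stx1a (-0.28 ± 0.17) and Syt11 (-0.19 ± 0.12) had the smallest p between the diets.

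In NP2-like neurons 28 were tested and 0 called (0.0559%, 0.014% and 0.0559% of 7153 genes). Syp was at 88.8 and 73.7 CPM in the deficient, 85.5 and 78 in the supplemented and 53.1 and 48 in the wild type mice. All 4 Ttpa-/- mice lay above both wild type mice, by 0.61 ± 0.22 and 0.65 ± 0.24, with adjusted p = 0.9997 and 0.9998 (edgeR), from 327 UMIs in all. The same contrasts of Syp in NF-like neurons were 0.08 ± 0.14 and 0.12 ± 0.14, and whether the classes differ in them was not tested. Stx1a was at -0.75 ± 0.33 in deficient against wild type and -0.80 ± 0.37 between the diets, from 170 UMIs, and Bsn at 0.40 ± 0.26 and -0.49 ± 0.26 in the remaining places. In NP3-like neurons 26 were tested and 0 called (0.0388%, 0.0388% and 0% of 7736 genes). The smallest p values there belonged to Pclo (-0.36 ± 0.18) and Stx1a (0.34 ± 0.26), to Snap25 and Sv2b (0.61 ± 0.46, -0.00810 without mouse 670), and to Erc2 (0.50 ± 0.29) and Pclo (-0.32 ± 0.19).

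None of the 78 genes of the 3 further lists was called in any cell set or contrast. The share of UMIs in the 38 genes was also close between groups within a class: in NF-like neurons it was 1.31 and 1.37% in the deficient, 1.31 and 1.34% in the supplemented and 1.32 and 1.33% in the wild type mice. In NP3-like neurons it was 0.535 and 0.515%, 0.520 and 0.516%, and 0.532 and 0.516%.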

How the data were processed

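UMI counts per gene and cell were deposited by the authors as 1 raw table of all 6 mice; per the submitters' processing notes bcl2fastq 2.17.1.14, Cell Ranger 2.0.1, the mm10 build, Seurat 2.3.0 and limma 3.32.10 were used. No source used here states how its cells were selected.

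Of 21685 cells, 27 with under 500 genes or over 20% mitochondrial UMIs were removed. A doublet caller run per library marked 27 cells at its automatic threshold, so 634 cells were removed at an expected rate that scales with the cells in a library, leaving 21024. A cell was gated to the class whose marker score (mean z-scored log expression, limited to 5) was highest, at least 0.25, at least 0.25 above the next and backed by 2 markers with a UMI. A margin within 0.05 counted as near. The 1078 cells with a non-neuronal score of at least 1 that also lay above their best neuronal score were set aside. The 22 clusters (scanpy 1.11.5, 2000 variable genes, 30 principal components, 15 neighbours, resolution 1.0) were built without the 38 genes.

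Counts were summed per mouse and class and tested with edgeR 4.0.16 (quasi-likelihood, TMM scaling, its default low-count filter, Benjamini-Hochberg adjustment over all genes). The biological coefficient of variation in the neuron sums was 12.2%, at 11428826 to 18171684 UMIs per mouse. The script was tested on simulated data. Alternatives were DESeq2 1.42.0, limma-voom 3.58.1, other size factors, no filter, doublets kept, a stricter gate (margin 0.5), cluster-based classes, wild type mice only, sums thinned to equal depth, sex as a term, and leaving out each mouse. Tests of all 15 pairs of classes were added after seeing the data.

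The 38 genes and all lists were chosen with earlier results of these data known. All 38 were accounted for. Named with values were, per class, up to 5 genes called higher and 3 lower by fold, the 5 smallest p values per contrast in all neurons and 2 per class, and up to 3 genes per direction from the other lists. Some genes that this rule names are not reported here. Clusters and further genes were named after their values were seen. Replicates are mice. Floors for a count of 0 use 3 counts and cover counting error only.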

Additional observations from a re-analysis of the deposited data

Results flagged for a closer look

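Of 37 pairs of a named release gene and a neuron class, those with under 30 UMIs in the class were not tested. Among the pairs that were tested, 1 mouse stood apart from the other 5 in 1 pair. Syt7 in NF-like neurons was at 41.7 CPM in mouse 654 (Ttpa-/-, deficient diet), while the other 5 mice lay between 21.3 and 25.5 CPM. The gap to the nearest mouse was 0.793 of the whole range, above Dixon's 95% limit for 6 samples, and chance alone passes this limit in about 1 of 20 groups. The other mouse of the same group, 657, was at 24.9 CPM. Without mouse 654 Syt7 was still called lower in NF-like neurons, and its difference between deficient and wild type mice there was 0.12 in place of 0.43.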

How the results depend on the processing

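Of 252 counts of called genes over all alternatives, 246 stayed within 1.5 times the main count. The count called lower in PEP-like neurons was 0, and 1 with DESeq2, with cluster-based classes and with wild type mice only. The count called lower in NP2-like neurons was 9, and 4 with wild type mice only and 5 with thinned sums. In deficient against wild type, all neurons, it was 0, and 2 without the low-count filter, where 19257 genes were tested in place of 13290. Leaving out 1 mouse gave 14 higher and 5 to 6 lower genes in NF-like, 8 and 0 in PEP-like, 3 to 4 and 5 to 6 in NP1-like, 2 and 6 to 8 in NP2-like, 2 and 12 to 13 in NP3-like and 5 and 6 to 7 in TH-like neurons, and 0 in every group contrast. Of the named genes, 498 class values kept their call and 17 lost it, 16 of them where a class held few UMIs. The other was Syt9 in NP3-like neurons, at 0.98 with thinned sums. Of the group values 729 kept their side, 2 passed without the filter, and 3 reversed. Over leaving out 1 mouse each, Slc17a7 in all neurons, deficient against wild type, ran from -1.08 to 0.18 (without mouse 699), Sv2b in NP3-like neurons, supplemented against wild type, from -0.00810 (without mouse 670) to 1.13, and Stxbp6 in NF-like neurons, deficient against supplemented, from -0.00272 (without mouse 670) to 0.96. The cause of these changes was not tested. The labels give the groups no shared replicate numbers, so no replicate block was fitted. Each group held 1 female and 1 male, and with sex as a term no release gene was called between groups. Of the 6 classes compared, NP2-like neurons had the fewest UMIs in sum, 4832287 over 6 mice from 645 cells. Of their 9 genes called lower, 5 had under 30 UMIs there.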

Other observations

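The class comparisons use gated cells, and single clusters, which enter them in part, held some release genes at other levels than the class sums. These are given here as medians over 6 mice with the lowest and highest mouse and with no test. Doc2b, nearly undetected elsewhere, was at 35.8 CPM (26.5 to 86.4) from 25 UMIs in the cluster led by Dcn and Nhlh2 (298 cells, 34 to 94 per mouse, of which 118 passed the PEP gate), and at 3.37 CPM (1.13 to 10.2) in the cluster led by Slc5a7 and Gal. In that Dcn cluster Cplx1 made up 19.9% (12 to 38.1) of the complexin UMIs, the lowest median share of the 22 clusters, and Sv2c 10.4% (0 to 15.8) of the SV2 UMIs.

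The cluster led by Foxp2 and Hjurp (284 cells, 17 to 72 per mouse, of which 67 passed the NF gate) held Slc17a6 at 716 CPM (506 to 808), above the 440.5 CPM (435 to 485) of the Fam19a1 cluster, and Syt1 at 923 CPM (654 to 1224). Foxp2 is a marker of the gate for cold-sensing Trpm8 neurons, and the 67 cells enter the NF-like sums. Slc17a7 made up a median of 0% (0 to 0.935) of the transporter UMIs in this cluster, against 48.2% in NF-like neurons. Among the PEP-like clusters, Syp was at 16.8 CPM (11.8 to 22.3) in the one led by Fgg and Tac1 and at 121 CPM (90.1 to 146) and 136 CPM (126 to 176) in those led by Sstr2 and by Slc5a7. Unc13c was at 80.0 CPM (64.8 to 87.4) in the Smr2 cluster and 4.66 CPM (2.62 to 9.34) in the Sstr2 cluster. Unc13c was listed at 0 in every mouse in the cluster led by Cadps2 and in the one led by Foxp2.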
